A study of Mus musculus with 49 samples.

Results

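Celecoxib was given to 23 of 49 CT26 tumours, and the RNA of these tumours was set against that of the other 26. Members were chosen by the treatment label alone. The celecoxib tumours were 16 given anti-PD-1 plus celecoxib and 7 given celecoxib alone, and the tumours without it were 17 given anti-PD-1 and 9 given vehicle. CT26 is a colon carcinoma cell line of BALB/c mice, here injected into mice of the Balb/c strain, so all 4 groups share the same line and host. Celecoxib was dosed daily at 30 mg/kg, anti-PD-1 in 2 doses of 200 µg, and vehicle was a mixture of DMSO, PEG400 and water. Dosing began on day 7 after injection and ran for 7 days. The tissue label and the extraction protocol name different collection days, which the sources used here do not settle. Age, sex and the hour of collection are not in the labels. Because 1 line was used and nothing states that each tumour came from its own animal, p-values measure the spread between these tumours, which may in part be technical.

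Celecoxib blocks cyclooxygenase-2 (COX-2), the inducible enzyme encoded by Ptgs2 that turns arachidonic acid into prostaglandin H2, from which Ptges makes prostaglandin E2. Prostaglandin E2 acts on myeloid cells, T cells and NK cells through the receptors encoded by Ptger2 and Ptger4, and in tumours it is known for dampening cytotoxic lymphocytes and dendritic cells. Celecoxib acts on the enzyme's activity, so the RNA levels of the pathway need not move with the dose.

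Tumours are also labelled R or NR for response, with no definition given: 12 of the 23 celecoxib tumours and 4 of the 26 others were labelled R, and every R tumour had received anti-PD-1. The R tumours were 12 of 16 under the combination and 4 of 17 under anti-PD-1. Total counts ran from 4251251 to 10437377 (median 7402020) in celecoxib tumours and from 4586727 to 13671294 (median 8627622) in the others. The celecoxib libraries were shallower by 0.24 on the log2 scale within the antibody strata (permutation test, two-sided, 100000 resamples, p = 0.0288). In 13 libraries the mean level of a skeletal muscle, skin or fat gene list stood above a fixed limit, and these were 7 of 23 celecoxib tumours and 6 of 26 others. Of genes set as markers of the carcinoma line, Cd44 had a median of 376 CPM (counts scaled to the library total) over the 49 tumours. Krt18 had 12.2 CPM and Krt8 3.30 CPM, and Epcam, at a median of 0.183 CPM, had 0 counts in 18. These are levels of whole tumours and cannot be assigned to the carcinoma cells alone.

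Celecoxib was tested as a main effect beside anti-PD-1, in edgeR's quasi-likelihood fit of all 49 tumours, so each log2 difference is that of celecoxib over no celecoxib at equal antibody status. The antibody-treated tumours carry 67.7% of the weight in that estimate and the antibody-free tumours 32.3%. At an adjusted p under 0.05 (Benjamini-Hochberg over all genes tested), 9 of 13726 genes differed, which is 0.0656% of them: Ptprj, Dbp, mt-Nd5, Rap2b, Tef and Abcg3 rose and Arntl, Spon2 and Krt19 fell. The 6 that rose are 0.0437% and the 3 that fell 0.0219% of the genes tested. At an unadjusted p under 0.05 there were 2268 genes, 16.5% of those tested, of which 1336 were higher (9.73%) and 932 lower (6.79%) with celecoxib. Of the 9, 6 had an adjusted p of 0.0467, close to the limit, and 20 further genes had an adjusted p between 0.05 and 0.06, and 241 between 0.05 and 0.1, of which 192 were higher with celecoxib. DESeq2 with the same terms called 216 genes (1.57%), 181 higher and 35 lower, all 9 among them. Leaving out 1 library at a time gave between 1 and 282 calls. No gene passed once the total count, or the response label, was added as a term (0% in edgeR, with 1687 and 1742 genes at an unadjusted p under 0.05).

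Within the antibody-treated tumours, the combination differed from anti-PD-1 in 69 genes (0.503% of 13726), 46 of them higher (0.335%) and 23 lower (0.168%). Celecoxib alone differed from vehicle in none (0%), with 314 genes (2.29%) at an unadjusted p under 0.05 and 7 called by DESeq2. The difference between these 2 differences passed for no gene in edgeR, with 413 genes (3.01%) at an unadjusted p under 0.05. DESeq2 called it for 2, Dbp and Tef.

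**Figure D1:**
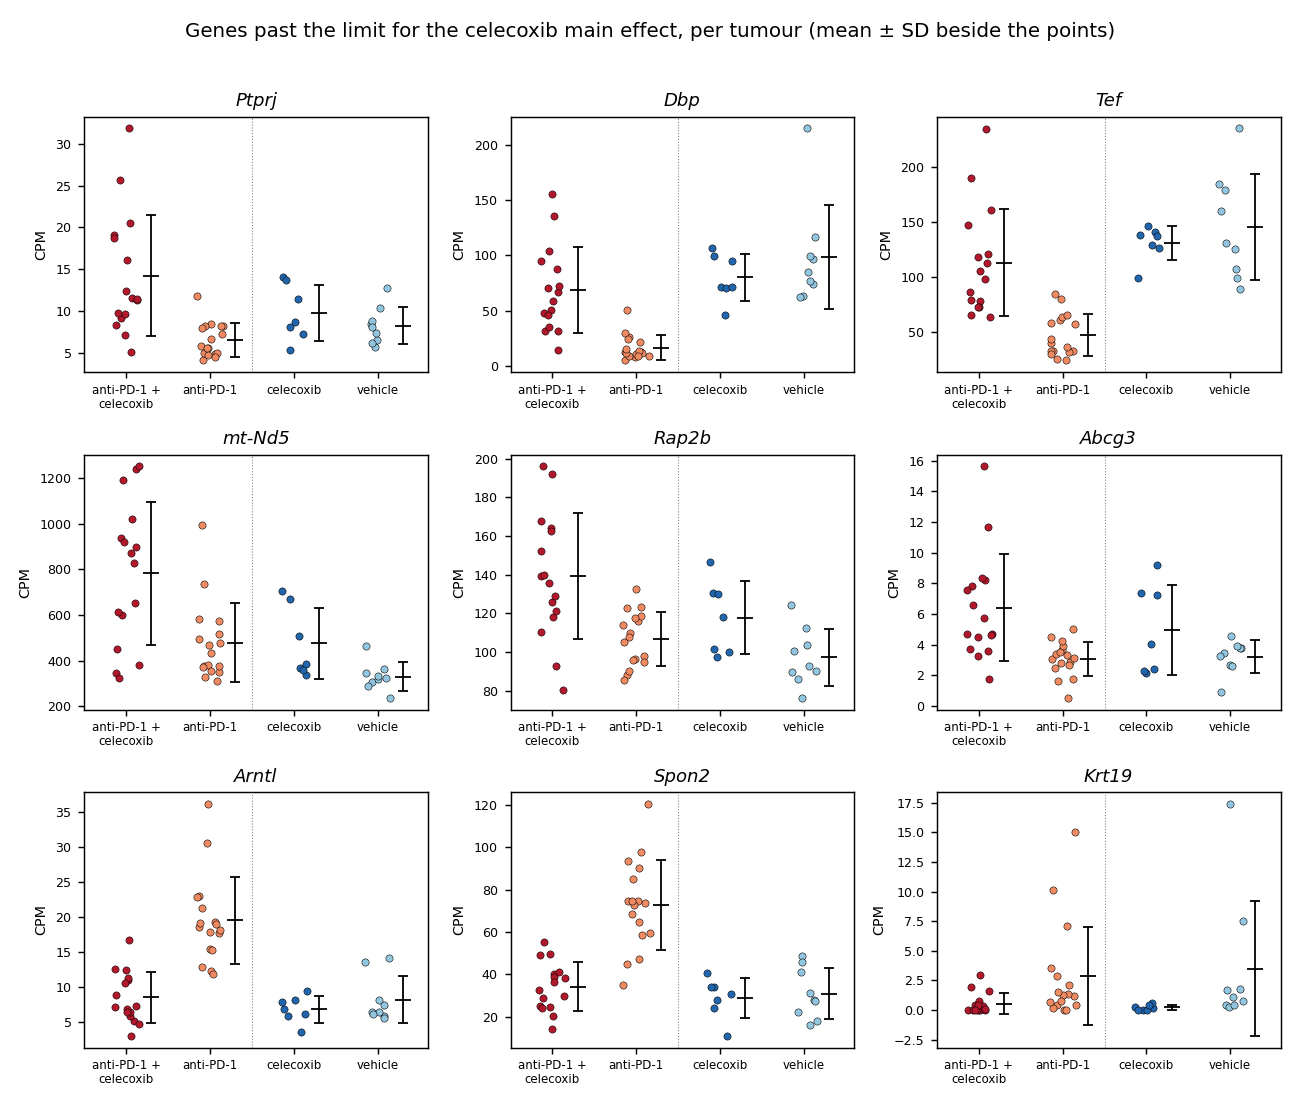
Level of each of the 9 called genes in every tumour, in CPM on the vertical axis, with groups along the horizontal axis in the order combination, anti-PD-1, celecoxib and vehicle; points are tumours and bars give the mean and SD. For Dbp and Tef the mean of the anti-PD-1 tumours is the lowest of the 4 groups, and for Arntl and Spon2 the highest, with ranges that overlap those of some other groups; Krt19 has its lowest means in both celecoxib groups.

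Of the 9 called genes, 3 belong to the circadian clock. In this feedback loop the activator encoded by Arntl (BMAL1), with its partner Clock, drives E-box genes, among them the repressors Per1, Per2 and Per3 and the PAR bZIP factors Dbp and Tef, while the nuclear receptors encoded by Nr1d1 and Nr1d2 repress Arntl through ROR elements. Arntl and Dbp therefore peak at opposite times of day in most mouse tissues. The promoter windows of these 3 called genes are shown because they moved together; each runs from 250 bases before to 50 bases after a transcription start (RefSeq, GRCm38.p6), 5′ to 3′ on the gene's strand, with matches in capitals. The motifs searched on both strands were the E-box CACGTG, the D-box TTATGTAA and the core AGGTCA of the ROR element, none of which overlapped another in these windows.

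Dbp, chr7:45704997-45705296, plus strand: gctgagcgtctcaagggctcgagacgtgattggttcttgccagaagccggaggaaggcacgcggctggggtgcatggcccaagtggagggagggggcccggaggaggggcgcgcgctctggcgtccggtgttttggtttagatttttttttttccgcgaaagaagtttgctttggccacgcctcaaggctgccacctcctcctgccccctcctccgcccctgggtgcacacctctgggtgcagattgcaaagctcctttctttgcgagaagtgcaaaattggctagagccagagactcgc
Tef, chr15:81811164-81811463, plus strand: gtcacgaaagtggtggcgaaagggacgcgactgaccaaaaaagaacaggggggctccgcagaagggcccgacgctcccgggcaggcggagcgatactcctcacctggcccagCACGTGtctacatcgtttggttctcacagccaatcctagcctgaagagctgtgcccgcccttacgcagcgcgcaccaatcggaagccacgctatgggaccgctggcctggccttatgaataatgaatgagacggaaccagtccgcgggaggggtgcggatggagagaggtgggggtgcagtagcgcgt
Arntl, chr7:113207261-113207560, plus strand: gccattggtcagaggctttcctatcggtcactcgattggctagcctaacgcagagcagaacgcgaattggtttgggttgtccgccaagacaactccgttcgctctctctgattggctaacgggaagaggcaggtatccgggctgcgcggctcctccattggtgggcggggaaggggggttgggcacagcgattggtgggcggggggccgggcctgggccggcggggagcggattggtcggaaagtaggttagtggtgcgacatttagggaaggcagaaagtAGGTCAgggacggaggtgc

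The Tef window holds an E-box that begins 138 bases before the start, and the gene's other window, chr15:81802423-81802722, holds 1 at 127 bases before its own. The Arntl window holds AGGTCA, beginning 32 bases after the start, and its other window, chr7:113207215-113207514, holds none of the 3. The Dbp window holds none of the 3, which says only that these letters are not in it. Of 32851 mouse windows of the same length, 7.15% hold the E-box, 0.938% the D-box and 16.3% the ROR core, so a match is a description of the letters and no more.

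Arntl (ENSMUSG00000055116, chr7:113207465-113314126, plus strand, GRCm38) had a lowest, median and highest level of 2.92, 7.13 and 16.7 CPM in the combination tumours, against 11.8, 18.6 and 36.2 CPM in the anti-PD-1 tumours. It had 3.43, 6.79 and 9.42 CPM with celecoxib alone, against 5.55, 6.43 and 14.1 CPM with vehicle. The anti-PD-1 tumours were thus high and the other 3 groups low and overlapping, and 13 of 16 combination tumours lay below the lowest anti-PD-1 tumour. Over all tumours, 22 of 23 celecoxib tumours lay below the median of those without. The main effect was a fall of 0.91 on the log2 scale (SE 0.16, edgeR adjusted p = 0.00977). Arntl passed the limit in each of the 49 fits that left out a library. Its difference was −1.20 (SE 0.18) with antibody and −0.26 (SE 0.26) without, and these differed with an unadjusted p of 0.00459 (adjusted p = 0.9996) in edgeR.

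Dbp (ENSMUSG00000059824, chr7:45705088-45710203, plus strand) had 14.4, 62.5 and 155 CPM (lowest, median and highest) in combination tumours, against 4.75, 12.4 and 50.8 CPM in anti-PD-1 tumours. With celecoxib alone the levels were 46, 71.4 and 107 CPM, against 62.1, 85.3 and 215 CPM with vehicle. The low group was again anti-PD-1 alone: 9 of 16 combination tumours lay above its highest tumour, while 0 of 7 celecoxib tumours exceeded the highest vehicle tumour. As a main effect this was a rise of 1.36 (SE 0.28, edgeR adjusted p = 0.0467), made of 2.08 (SE 0.27) with antibody and −0.30 (SE 0.37) without. That contrast between strata had an unadjusted p of 5.38e-06 and an adjusted p of 0.0739 in edgeR. In DESeq2 it was 2.37 (SE 0.44, adjusted p = 0.000743). Reads of Dbp and of Sphk2, which overlaps it on the opposite strand, are told apart only if the counting used strand, a setting not given in the sources used here.

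Tef (ENSMUSG00000022389, chr15:81802421-81826863, plus strand) had 63, 102 and 235 CPM in combination tumours (lowest, median and highest), against 23.6, 39.9 and 84.4 CPM in anti-PD-1 tumours. Its levels under celecoxib alone were 99.0, 137 and 147 CPM, against 89.1, 131 and 236 CPM with vehicle. Each of the 23 celecoxib tumours lay above the median of the 26 others, although the highest level of all was in a vehicle tumour. The main effect was a rise of 0.83 (SE 0.18, edgeR adjusted p = 0.0467), with 1.27 (SE 0.18) in the antibody stratum and −0.15 (SE 0.26) outside it. These strata differed with an unadjusted p of 4.05e-05 (adjusted p = 0.278 in edgeR, 0.0351 in DESeq2).

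Of 18 clock genes tested, 15 had a positive main effect (49% of all genes did), with a median of 0.26 against −0.0045 over all genes. Dbp and Tef rose, Arntl fell, and the other 15 did not pass. Per2, a repressor of the loop, had 16.7, 51 and 103 CPM in combination tumours, against 7.68, 18.8 and 43.1 CPM in anti-PD-1 tumours, and its main effect of 0.87 (SE 0.20) had an edgeR adjusted p of 0.0530. Per3 (0.59, SE 0.14, adjusted p = 0.0606) and Nr1d2 (0.42, SE 0.11, adjusted p = 0.0619) lay just outside the limit. Clock itself (0.14, SE 0.13) and Cry1 (0.19, SE 0.15), a further repressor, lay near 0. Under antibody 6 of the 18 passed, 5 of them higher, against 0.503% of all genes in either direction. Without antibody 0 did, as over the whole table (0%), and the median was −0.15. With a clock measure of 6 of these genes as a term, 1 gene passed over the whole table, Krt19. That measure contains Dbp, Tef and Per2, whose main effects in that fit were −0.00, −0.16 and −0.04. Each of these genes was thus adjusted for a term built in part from its own level, so their values there are not a test. How far the clock genes bear on the other differences was not tested.

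**Figure D2:**
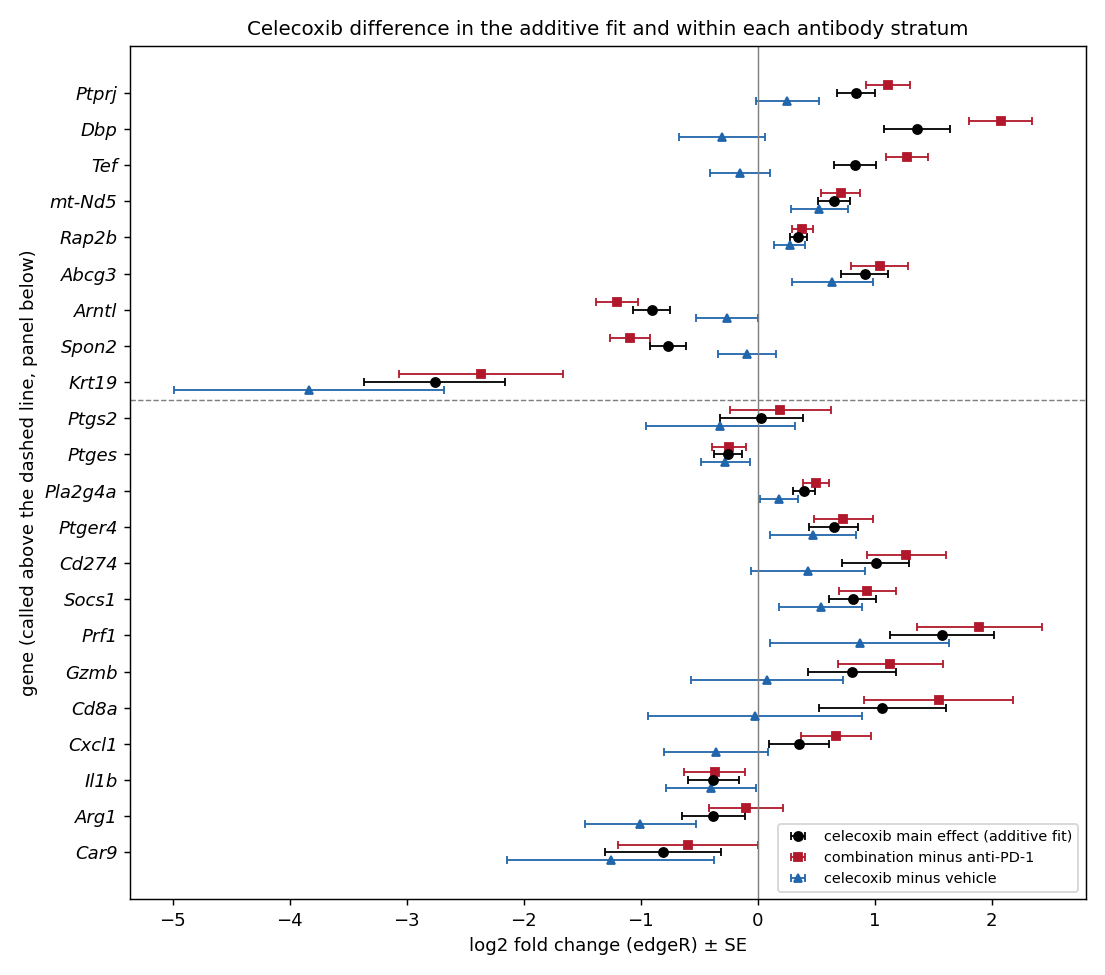
Log2 difference of celecoxib over no celecoxib, with its standard error, on the horizontal axis. Genes are the 9 called and the fixed panel without Ptgs1, Cxcl2, Ifng, Hpgd and Il6. Markers give the main effect, the antibody-treated tumours alone and the antibody-free tumours alone. For Dbp and Tef the antibody-free difference has the opposite sign. Arntl, Spon2 and Ptprj keep their sign in both strata, with a much larger antibody-treated difference. For mt-Nd5, Rap2b and Abcg3 the antibody-treated difference is also the larger, but the strata lie closer together.

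Spon2 and Ptprj, like Arntl, differed mainly in the antibody-treated tumours. Spon2 (ENSMUSG00000037379, chr5:33198184-33218455, minus strand) encodes spondin 2, a secreted matrix protein. It had 14.3, 34.4 and 55.1 CPM in combination tumours (lowest, median and highest), against 35.0, 73.5 and 120 CPM in anti-PD-1 tumours. Celecoxib alone gave 10.8, 30.5 and 40.7 CPM, against 15.9, 27.8 and 48.6 CPM for vehicle. All 23 celecoxib tumours lay below the median of the others, and the anti-PD-1 tumours were again the high group. As a main effect this was a fall of 0.77 (SE 0.15, edgeR adjusted p = 0.0386), with −1.09 (SE 0.17) with antibody and −0.09 (SE 0.25) without, which differed with an unadjusted p of 0.00152 (adjusted p = 0.9996). With the response label as a term its main effect was −0.50.

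Ptprj (ENSMUSG00000025314, chr2:90429754-90580647, minus strand) encodes the receptor tyrosine phosphatase CD148, which is found on many blood cells. Its levels were 5.08, 11.5 and 31.8 CPM in combination tumours (lowest, median and highest), against 4.12, 5.84 and 11.8 CPM in anti-PD-1 tumours. With celecoxib alone they were 5.32, 8.68 and 14.1 CPM, against 5.78, 8.13 and 12.8 CPM with vehicle. The groups overlap, with 21 of 23 celecoxib tumours above the median of those without. It rose by 0.84 (SE 0.16, edgeR adjusted p = 0.0257), with 1.11 (SE 0.19) under antibody and 0.25 (SE 0.27) without, an unadjusted p of 0.0114 between them (adjusted p = 0.9996). In NR tumours alone the main effect was 0.47 (adjusted p = 0.496).

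The next 3 genes differed in the same direction and by more similar amounts in both strata, though none passed among antibody-free tumours. mt-Nd5 (ENSMUSG00000064367, mitochondrial genome 11742 to 13565, plus strand) encodes a subunit of respiratory complex I. It had 326, 849 and 1252 CPM in combination tumours (lowest, median and highest), against 311, 434 and 995 CPM in anti-PD-1 tumours. In the antibody-free tumours it had 338, 385 and 705 CPM under celecoxib, against 236, 322 and 463 CPM with vehicle. All 7 celecoxib-alone tumours lay above the vehicle median, 3 of them above the highest vehicle tumour. The main effect was 0.65 (SE 0.14, edgeR adjusted p = 0.0467), as 0.71 (SE 0.17) with antibody and 0.53 (SE 0.24) without. It overlaps mt-Nd6 on the opposite strand, which at a mean of 4.61 CPM had 0.63 (SE 0.36).

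The other mitochondrially encoded transcripts did not pass. Of 7 tested, 6 had a positive main effect and the median was 0.38. mt-Nd2, another complex I subunit, had 0.54 (SE 0.20, edgeR adjusted p = 0.178) and mt-Co1, of complex IV, 0.38 (SE 0.12, adjusted p = 0.104). mt-Cytb (0.08, SE 0.12), mt-Nd4 (0.10, SE 0.17) and mt-Nd1 (−0.04, SE 0.10) lay near 0, so the transcripts of this 1 genome differed unequally. With the muscle list as a term mt-Nd5 had 0.72.

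Rap2b (ENSMUSG00000036894, chr3:61361638-61368430, plus strand) encodes a small GTPase of the Ras family. It had 80.5, 138 and 196 CPM in combination tumours (lowest, median and highest), against 85.3, 108 and 133 CPM in anti-PD-1 tumours. Celecoxib alone gave 97.5, 118 and 147 CPM, against 76.2, 92.9 and 125 CPM for vehicle. The groups overlap, and 10 of 23 celecoxib tumours lay above the highest tumour without it. The rise was small, 0.35 (SE 0.075, edgeR adjusted p = 0.0467), with 0.38 (SE 0.092) and 0.28 (SE 0.13) in the strata with and without antibody.

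Abcg3 (ENSMUSG00000029299, chr5:104935057-104982718, minus strand) belongs to the ABC transporter family. It had 1.74, 5.22 and 15.7 CPM in combination tumours (lowest, median and highest), against 0.496, 3.10 and 5.00 CPM in anti-PD-1 tumours. Without antibody the levels were 2.11, 4.04 and 9.23 CPM under celecoxib, against 0.876, 3.47 and 4.56 CPM with vehicle. It overlaps in range, with 11 of 23 celecoxib tumours above the highest tumour without the drug. The rise was 0.91 (SE 0.20, edgeR adjusted p = 0.0467), with 1.04 (SE 0.24) under antibody and 0.64 (SE 0.35) without. Its annotation shares bases with Gm43856 on the same strand, so reads could be split between them.

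Krt19 (ENSMUSG00000020911, chr11:100140810-100148665), which encodes a keratin of simple epithelium, had the lowest level of the 9 and the steepest difference. It had 0, 0.125 and 2.98 CPM in combination tumours (lowest, median and highest), against 0, 1.24 and 15.0 CPM in anti-PD-1 tumours. With celecoxib alone it had 0, 0.163 and 0.608 CPM, against 0.218, 1.10 and 17.4 CPM with vehicle. It had 0 counts in 10 of 23 celecoxib tumours and in 2 of 26 others, and 20 of 23 celecoxib tumours lay below the median without the drug. As a main effect this was a fall of 2.76 (SE 0.60, edgeR adjusted p = 0.0467), with −2.36 (SE 0.70) under antibody and −3.84 (SE 1.16) without. A count of 0 allows up to 3 counts, which is 0.219 to 0.706 CPM depending on the library; this covers counting error only. The test with limma-voom gave −2.27 with an adjusted p of 0.132. Without the 13 libraries that hold other tissue it was −1.74 (adjusted p = 0.221).

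The other simple-epithelial keratins of the carcinoma list did not pass. Krt7 had a main effect of −1.54 (SE 0.40, edgeR adjusted p = 0.0629), Krt18 −0.75 (SE 0.25, adjusted p = 0.140) and Krt8 −0.84 (SE 0.41, adjusted p = 0.286). Krt18, the best expressed, had 2.25, 8.46 and 49.8 CPM in combination tumours (lowest, median and highest), against 4.91, 15.6 and 31.2 CPM in anti-PD-1 tumours. Its levels under celecoxib alone were 2.92, 9.77 and 13.7 CPM, against 7.62, 14.3 and 53 CPM with vehicle. Medians were lower with celecoxib in both strata and ranges overlapped. Of 7 genes tested in this list, 5 were lower, with a median of −0.75. Cdh1 (E-cadherin; 0.20, SE 0.39) and Spint1 (0.71, SE 0.46), a protease inhibitor of epithelial cells, were the 2 with a positive value. In bulk tumours, fewer cells of a type and less RNA per cell cannot be told apart.

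Of the 20 genes with an adjusted p between 0.05 and 0.06, 3 are described here, chosen after their values were seen. Lpl, lipoprotein lipase, had 39.1, 78.5 and 241 CPM in combination tumours (lowest, median and highest), against 18.6, 39.5 and 88.7 CPM in anti-PD-1 tumours. In the antibody-free tumours it had 67.2, 90.4 and 105 CPM under celecoxib, against 22.5, 42.2 and 204 CPM with vehicle. Medians were higher with celecoxib in both strata, ranges overlapped, and 1 vehicle tumour was high. Its main effect of 0.98 (SE 0.22) had an edgeR adjusted p of 0.0530, and it was the 1 gene that passed (0.00738% of those tested) without the libraries holding other tissue. Angptl4, an inhibitor of lipoprotein lipase, had 35.1, 46 and 81.2 CPM with the combination, against 33.4, 105 and 148 CPM with anti-PD-1. Its main effect was −0.64 (SE 0.14, adjusted p = 0.0530), with −0.89 (SE 0.16) under antibody and −0.11 (SE 0.23) without. Ly86 (MD-1), a partner of a Toll-like-receptor homologue on myeloid and B cells, had a main effect of 1.07 (SE 0.25, adjusted p = 0.0539). Among antibody-treated tumours all 3 passed in edgeR. There Lpl had 1.12 (SE 0.27, adjusted p = 0.0372), Ly86 1.30 (SE 0.30, adjusted p = 0.0336) and Angptl4 an adjusted p of 0.00186. Without antibody Lpl had 0.69 (SE 0.38) and Ly86 0.57 (SE 0.43), and none of the 3 passed.

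The enzymes and receptors of the drug's own pathway did not pass for the main effect. Ptgs2, the target, had 1.62, 10.6 and 77.7 CPM in combination tumours (lowest, median and highest), against 4.68, 8.41 and 64.7 CPM in anti-PD-1 tumours. Without antibody the levels were 5.41, 11.9 and 29.6 CPM under celecoxib, against 7.19, 12.1 and 60.7 CPM with vehicle. The ranges covered each other and the main effect was 0.03 (SE 0.36, edgeR adjusted p = 0.972). Its sign followed the model, with −0.57 when the response label was a term and −0.43 without the libraries holding other tissue, neither past the limit. Ptgs1, which encodes the constitutive COX-1, had 0.03 (SE 0.12), with medians of 89.6 CPM for the combination, 77.4 CPM for anti-PD-1, 86 CPM for celecoxib and 74.8 CPM for vehicle.

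Pla2g4a, the phospholipase that frees arachidonic acid, came nearest. It had 32.9, 51.3 and 70.4 CPM in combination tumours (lowest, median and highest), against 19.4, 33.8 and 53.2 CPM in anti-PD-1 tumours. With celecoxib alone it had 28.9, 33 and 53.2 CPM, against 26.8, 32.6 and 39.1 CPM with vehicle. The combination had the highest median and the other 3 groups were alike in median, with ranges that overlapped. Of the 16 combination tumours, 7 lay above the highest anti-PD-1 tumour. Under antibody Pla2g4a passed in edgeR, at 0.50 (SE 0.11, adjusted p = 0.0336). Without antibody it had 0.18 (SE 0.16) and did not pass. The main effect was 0.40 (SE 0.095, edgeR adjusted p = 0.0539), and DESeq2 called it. With the response label as a term it was 0.28 (edgeR adjusted p = 0.256), and with the muscle list as a term 0.39 (adjusted p = 0.0415). Ptges was −0.26 (SE 0.12, adjusted p = 0.262) and the prostacyclin synthase gene Ptgis −0.46 (SE 0.18, adjusted p = 0.196). Over the 14 genes of synthesis and breakdown tested, 6 were positive and the median was −0.03. Hpgd, which breaks prostaglandins down, was too low to test, with a median of 0.311 CPM in celecoxib tumours and 0.265 CPM in the others.

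Of the receptors, Ptger4 (EP4) had 2.32, 17.5 and 40.3 CPM in combination tumours (lowest, median and highest), against 2.85, 9.91 and 27.7 CPM in anti-PD-1 tumours. Its levels under celecoxib alone were 11.1, 13.6 and 28.2 CPM, against 2.75, 11.4 and 19.2 CPM with vehicle. Its main effect of 0.65 (SE 0.21) had an edgeR adjusted p of 0.118. Ptger2 (EP2), at a mean of 1.64 CPM, had 0.49 (SE 0.32), and Ptger1 (EP1) −0.36 (SE 0.18), both short of the limit. The 7 leukotriene genes tested, the other arm of arachidonic acid metabolism, had a median of −0.04.

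The inflammatory genes commonly placed downstream of prostaglandin E2 did not pass either. Cxcl1, a neutrophil chemokine, had 4.70, 13.5 and 68.1 CPM in combination tumours (lowest, median and highest), against 3.55, 9.37 and 32.9 CPM in anti-PD-1 tumours. In the antibody-free tumours it had 3.31, 7.88 and 11.3 CPM under celecoxib, against 6.69, 10.3 and 14.6 CPM with vehicle. Its main effect was 0.36 (SE 0.26), and −0.22 with the response label as a term. Il1b (−0.38, SE 0.21), Arg1 (−0.38, SE 0.27) and Cxcl2 (−0.19, SE 0.38) had edgeR adjusted p-values of 0.363, 0.477 and 0.829. Il6 was too low to test, with 0 counts in 9 of 23 celecoxib tumours and 11 of 26 others. Of the list of 13 such genes tested, 7 were positive and the median was 0.16, against −0.22 with the response label as a term and −0.14 without the libraries holding other tissue, and 0.017 without combination replicate 14. The 6 neutrophil genes tested had a median of 0.06.

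**Figure D3:**
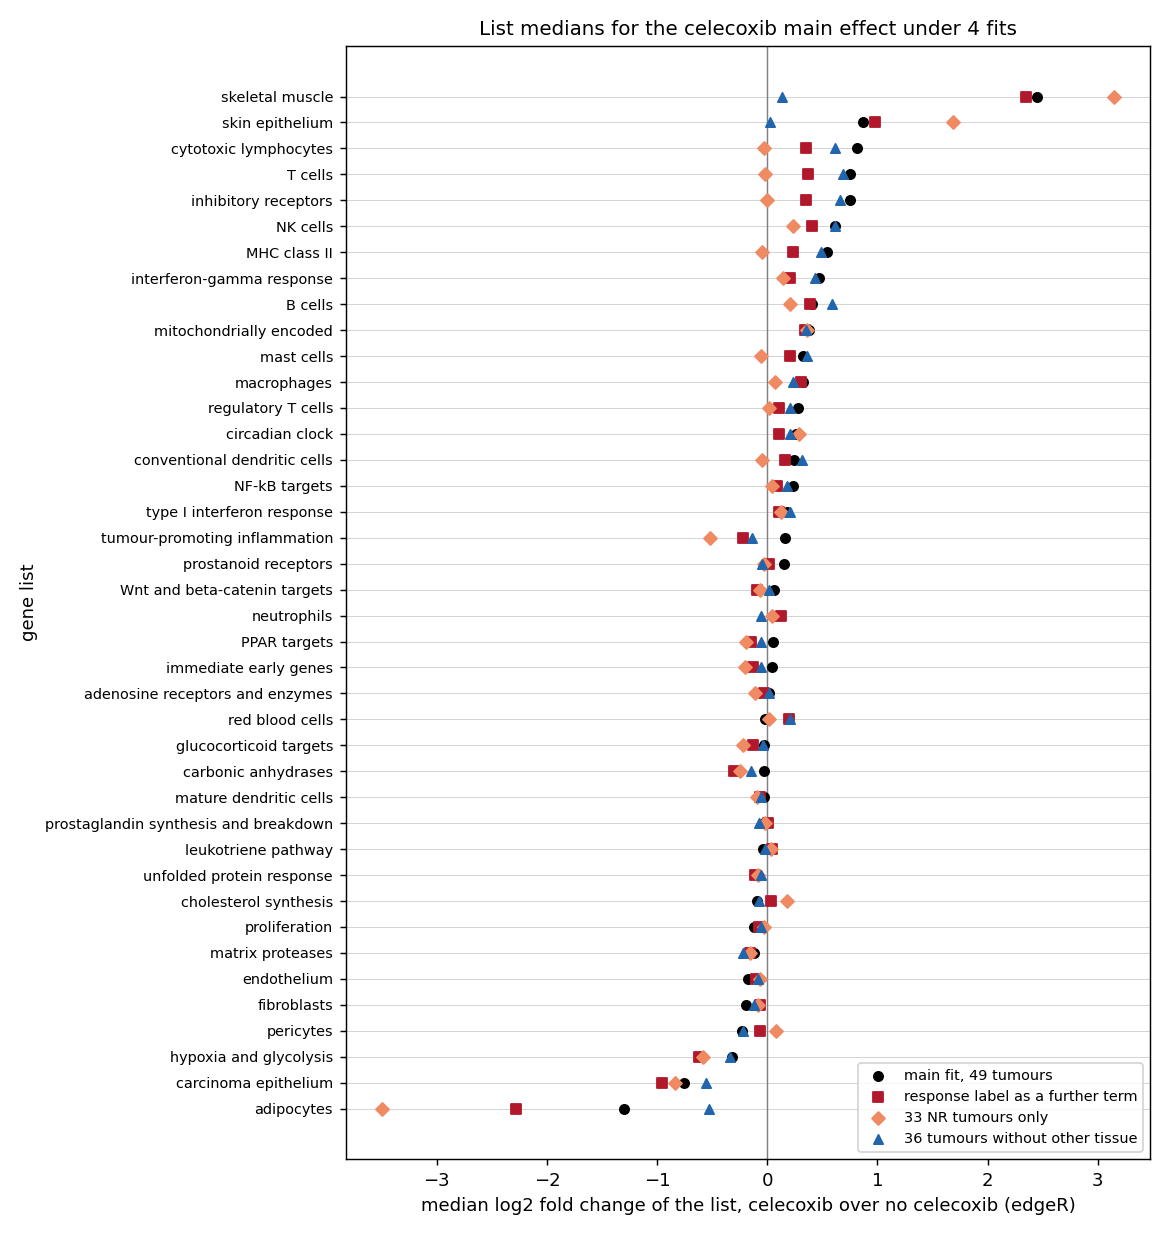
Median log2 difference of celecoxib over no celecoxib for each of the 40 gene lists, on the horizontal axis, in the main fit and in 3 other fits of the same tumours or a subset. Lymphocyte, interferon-gamma and class II lists lie to the right of 0 in the main fit, and the muscle, skin and fat lists move most when libraries holding other tissue are left out.

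Immune lists lay above 0 without any member passing for the main effect in edgeR. Among antibody-treated tumours, 1 of the 16 cytotoxic lymphocyte genes was called higher in edgeR, against 0.335% of all genes. Of the immune genes in the fixed panel, DESeq2 called Socs1 (adjusted p = 0.0106), Cd274 (0.0374) and Prf1 (0.0455). It did not call Cd8a, Gzmb or Ifng. Of 40 lists, 24 had a median above that of all genes. The interferon-gamma response had 32 of 32 tested genes positive (median 0.47), T cells 19 of 19 (median 0.75), cytotoxic lymphocytes 16 of 16 (median 0.81), NK cells 8 of 8 (median 0.62) and MHC class II 10 of 10 (median 0.54), against 49% of all genes. At an unadjusted p under 0.05 and higher with celecoxib stood 15 of the 32, 11 of the 19, 9 of the 16, 3 of the 8 and 4 of the 10 genes, against 9.73% of all genes. Genes of a list move together between tumours, so these counts are not independent.

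Prf1 (perforin, the pore protein of killer cells) had 0, 4.80 and 14.4 CPM in combination tumours (lowest, median and highest), against 0, 0.768 and 8.44 CPM in anti-PD-1 tumours. Without antibody the levels were 0.150, 2.28 and 6.61 CPM under celecoxib, against 0.250, 1.16 and 3.92 CPM with vehicle. Medians were higher with celecoxib in both strata and the ranges overlapped. As a main effect this was 1.58 (SE 0.44, edgeR adjusted p = 0.0879). Cd8a, which marks cytotoxic T cells, had a median of 16 CPM under the combination, against 1.42 CPM under anti-PD-1, and 3.38 CPM under celecoxib, against 8.94 CPM under vehicle, so the medians ran in opposite directions. Its main effect was 1.06 (SE 0.54, adjusted p = 0.316). Gzmb (granzyme B; 0.81, SE 0.38, adjusted p = 0.269) and Ifng (0.82, SE 0.46, adjusted p = 0.357) did not pass. Bcl11b, a transcription factor of T cells, had 0.97 (SE 0.27, adjusted p = 0.0799) and the lymphocyte chemokine gene Xcl1 1.24 (SE 0.33, adjusted p = 0.0702).

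Among interferon-gamma genes, Cd274 encodes PD-L1, the ligand of PD-1. It had 10.2, 61.4 and 161 CPM in combination tumours (lowest, median and highest), against 5.61, 16.2 and 72.4 CPM in anti-PD-1 tumours. With celecoxib alone it had 7.29, 17.6 and 53.6 CPM, against 9.88, 18.3 and 27.5 CPM with vehicle. The combination was the high group, overlapping the others, and the main effect was 1.01 (SE 0.28, edgeR adjusted p = 0.0879). Socs1, a feedback inhibitor of the pathway, had medians of 50.8 CPM with the combination, against 24.8 CPM with anti-PD-1, and 30.8 CPM with celecoxib, against 28.1 CPM with vehicle. Its main effect was 0.81 (SE 0.20, adjusted p = 0.0619).

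**Figure D4:**
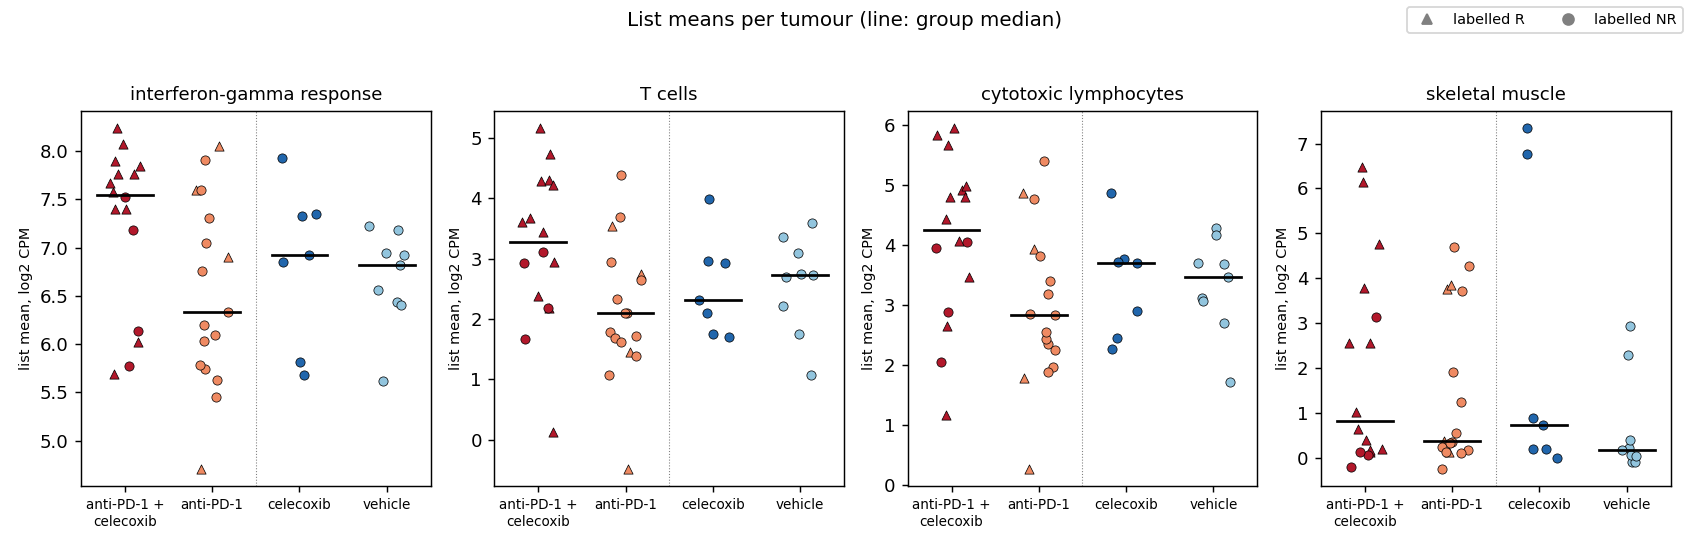
Mean log2 CPM of the interferon-gamma, T cell, cytotoxic lymphocyte and skeletal muscle lists in each tumour, on the vertical axis, by group; triangles are tumours labelled R, circles NR, and lines group medians. Combination tumours have the highest medians of the first 3 lists, and 2 tumours given celecoxib alone have the highest means of the muscle list.

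The medians of these lists were larger among antibody-treated tumours. The T cell median was 1.06 with antibody and 0.00 without, the cytotoxic median 1.11 and 0.08, the class II median 0.81 and −0.04, and the interferon-gamma median 0.55 and 0.25; the difference between strata was not tested for lists. Summed over the T cell list, combination tumours had 35.4 to 894 CPM (median 231), against 26.5 to 512 CPM (median 114) in anti-PD-1 tumours. Celecoxib alone gave 92.2 to 363 CPM (median 161), against 52.7 to 296 CPM (median 159) for vehicle. The response label is unevenly spread over the treatments, as R tumours were 12 of 23 with celecoxib and 4 of 26 without. A response can follow from the treatment, so fits that use the label cannot separate it from celecoxib. With that label as a term the medians were 0.37 for T cells, 0.35 for cytotoxic lymphocytes, 0.23 for class II and 0.21 for interferon-gamma. Among the 33 NR tumours, 11 of them with celecoxib, they were −0.02, −0.03, −0.05 and 0.15. Those 11 were 4 combination tumours and 7 given celecoxib alone, so the strata are weighted otherwise than in the main fit. How far that shift accounts for the lower medians was not tested.

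Other leukocyte and immune-signalling lists had no member past the limit for the main effect in edgeR. Macrophage genes were positive in 14 of 15 (median 0.32), with Cd163, a scavenger receptor, the 1 exception (−0.39, SE 0.20). Conventional dendritic cells (9 of 11, median 0.24), regulatory T cells (5 of 8, median 0.28), inhibitory receptors of T cells (6 of 7, median 0.75), B cells (3 of 3, median 0.41), mast cells (6 of 8, median 0.32), NF-kB targets (15 of 16, median 0.24) and the type I interferon response (21 of 26, median 0.17) were mostly positive. Without antibody, mast cells were positive in 0 of 8 (median −0.28), regulatory T cells in 3 of 8 (−0.05) and inhibitory receptors in 4 of 7 (0.01). Macrophages (12 of 15), conventional dendritic cells (9 of 11), B cells (2 of 3), NF-kB targets (12 of 16) and type I interferon (23 of 26) stayed mostly positive there. The main-effect median of NF-kB targets was 0.12 without combination replicate 13, and that of conventional dendritic cells 0.15 without combination replicate 1. Mature dendritic cells were evenly split (4 of 8, median −0.03). Xaf1, an interferon-induced gene, had nearly the same difference with and without antibody, 0.74 and 0.70, and a main effect of 0.73 (SE 0.18, edgeR adjusted p = 0.0619). Adora2a, the adenosine receptor best known on lymphocytes, had 1.20 (SE 0.29, adjusted p = 0.0606), beside a median of 0.01 over the 8 adenosine genes.

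Vascular, stromal, proliferation and hypoxia lists had main-effect medians below 0 and no member past the limit for that effect in edgeR. Endothelium was positive in 4 of 18 genes (median −0.17), pericytes in 2 of 9 (median −0.23), fibroblasts in 4 of 14 (median −0.19) and matrix proteases in 3 of 14 (median −0.12). With antibody these medians were −0.27, −0.59, −0.28 and −0.13. Without antibody they were 0.10 (13 of 18 positive), 0.40 (7 of 9), 0.01 (8 of 14) and −0.02 (7 of 14). The proliferation median was −0.18 with antibody and 0.01 without, and the hypoxia median −0.17 and −0.66. Mmp3, stromelysin 1, had 4.14, 8.59 and 15.5 CPM with the combination (lowest, median and highest), against 7.56, 18.2 and 24.5 CPM with anti-PD-1. It had 5.98, 8.23 and 18.7 CPM with celecoxib, against 3.00, 9.51 and 14.2 CPM with vehicle. The high group was anti-PD-1 alone, and the main effect was −0.55 (SE 0.17, edgeR adjusted p = 0.105). Under antibody, 3 of the 14 protease genes and 1 of the 18 endothelial genes were called, all lower, against 0.168% of all genes lower under antibody. Hypoxia and glycolysis genes were positive in 3 of 24 (median −0.32, but −0.19 without vehicle replicate 8 and −0.47 without combination replicate 15). Proliferation genes were positive in 3 of 20 (median −0.12, but −0.074 without combination replicate 14). The endothelial median was −0.11 without anti-PD-1 replicate 9.

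Car9, the hypoxia-induced carbonic anhydrase IX, is of a family that celecoxib's sulfonamide is known to bind. It had 7.70, 30.0 and 328 CPM in combination tumours (lowest, median and highest), against 5.92, 24.9 and 562 CPM in anti-PD-1 tumours. Its levels under celecoxib alone were 12, 22.6 and 135 CPM, against 15.3, 77.3 and 535 CPM with vehicle. Ranges were wide in every group and overlapped, and the main effect was −0.81 (SE 0.50, edgeR adjusted p = 0.403). Single libraries moved it: it was −1.16 without combination replicate 15, −0.54 without vehicle replicate 8 and −0.40 without anti-PD-1 replicate 14, none past the limit. The 10 carbonic anhydrase genes tested had a median of −0.03. The remaining lists had medians from −0.09 to 0.16. Those below 0 were the unfolded protein response (3 of 18 positive, median −0.09), cholesterol synthesis (6 of 17, −0.09), glucocorticoid targets (6 of 14, −0.03) and red blood cells (2 of 5, −0.02). Those above 0 were PPAR targets (8 of 13, 0.05), Wnt and beta-catenin targets (7 of 11, 0.06), immediate early genes (9 of 16, 0.04) and prostanoid receptors (3 of 5, 0.16).

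The largest list medians belonged to tissue next to the tumour. Skeletal muscle genes were positive in 21 of 22 (median 2.45), 19 of them with an unadjusted p under 0.05 (9.73% of all genes were higher at that p), and none passed the limit. The summed muscle list ran from 97.3 to 7413 CPM (median 147) in celecoxib tumours and from 101 to 1153 CPM (median 165) in the others, so a few libraries were very high and the medians differed little. Acta1, skeletal actin, had a highest level of 1824 CPM and a median of 3.68 CPM in celecoxib tumours, against 204 and 1.53 CPM in the others. Skin epithelium was positive in 6 of 6 (median 0.87) and adipocytes in 1 of 8 (median −1.30), where Adipoq (adiponectin) reached 9.51 CPM in celecoxib tumours and 101 CPM in a vehicle tumour. Without the 13 libraries that hold other tissue, the medians were 0.13 for muscle, 0.02 for skin and −0.53 for adipocytes. Leaving out celecoxib replicate 3 alone put the skin median at 0.00, and leaving out vehicle replicate 6 alone put the adipocyte median at −0.38. With the muscle list as a term, 161 genes passed (1.17%; 113 higher, 48 lower), the 9 among them.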

How the data were processed

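QuantSeq 3′ FWD libraries, which read the 3′ ends of transcripts, were made from 49 CT26 tumours, per the labels' protocols. The deposited table holds the authors' raw counts per Ensembl gene (39179 genes, 37607 given a symbol from GENCODE M21 on GRCm38). The tools named in the submitters' processing notes are bcl2fastq, STAR, featureCounts and limma, and the builds mm10 and GRCm38. Their versions, the strand setting and how multi-mapping reads were handled were not given in the sources used here. A second deposited table, of log2 CPM, was not used.

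Groups came from the treatment label. The counts were tested with edgeR 4.0.16 in R 4.3.3 (TMM, filterByExpr on the 4 groups, robust quasi-likelihood, 13726 genes, Benjamini-Hochberg), with celecoxib and anti-PD-1 as additive terms; the strata and their difference came from a fit of the 4 groups. Standard errors are those of the log2 differences. In edgeR each was taken as the size of the difference divided by the square root of its F statistic. Counting error adds to the standard errors most at low CPM. CPM use TMM library sizes, and list means use log2 CPM with a prior count of 2. Named were up to 12 genes per direction past 0.05 with a mean of at least 2 CPM, any list member past 0.05, and a fixed panel; predicted genes were left out. The members, the lists and the tests were chosen with earlier results of these data known, and lists are described by counts and medians with no test. Libraries were taken to hold other tissue above a mean log2 CPM of 3 for the muscle genes or 5 for the skin or fat genes. The alternatives were DESeq2 1.42.0, limma-voom 3.58.1, RLE scaling, no filter on low counts, other model terms, subsets of the tumours and leaving out each library. The fit was tested on simulated data. No library was a copy of another: the closest 2 had a Pearson r of 0.983 and a chi-square per gene of 16.4.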

Additional observations from a re-analysis of the deposited data

Results flagged for a closer look

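In groups of 4 to 10 tumours, a value far from the rest of its group by Dixon's criterion was found in 12 of the 72 combinations of a group with a gene or list that were examined; chance gives about 1 in 20. Gene values here are log2(CPM + 1) and list values mean log2 CPM.

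In vehicle tumours, replicate 8 accounted for 5 of them. It was the highest for Dbp (7.75), Ptgs2 (5.95) and the hypoxia and glycolysis list (8.40), and the lowest for Abcg3 (0.907) and Ptger4 (1.91). Vehicle replicate 6 was the highest for the adipocyte list (6.5) and the skin list (2.61), and vehicle replicate 1 for Il6 (1.02).

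In tumours given celecoxib alone, replicate 3 was the highest for the skin list (6.87) and the lowest for Spon2 (3.56) and Cxcl1 (2.11). Celecoxib replicate 4 was the lowest for Tef (6.64), a value above the highest tumour given anti-PD-1 alone.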

How the results depend on the processing

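The count of celecoxib calls depended on the setting. It was 9 in the fit reported, 216 with DESeq2, 94 with no filter on low counts, 44 with no anti-PD-1 term and 161 with the muscle list as a term. It was 0 with equal weight for the strata, 0 with the response label as a term, 0 in NR tumours alone and 0 with the total count as a term. Those 4 fits had 1383, 1742, 1172 and 1687 genes at an unadjusted p under 0.05. The clock measure as a term left 1 call, Krt19, and leaving out libraries with other tissue left 1, Lpl. With limma-voom it was 7 and with RLE scaling 9. The combination against anti-PD-1 gave 297 with DESeq2 and 19 in a fit of those 2 groups. Celecoxib against vehicle gave 7 with DESeq2, and the difference between strata 2.

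Without 1 library the count ran from 1 to 282, and 12 of 49 such fits stayed within 1.5 times of 9. There was 1 call without combination replicates 9, 14 or 16 or anti-PD-1 replicates 3, 4, 5, 8 or 16, and 2 without combination replicates 5 or 8, anti-PD-1 replicates 2, 9 or 11 or vehicle replicates 3 or 5. There were 3 without combination replicates 4 or 6 or anti-PD-1 replicate 15, 4 without combination replicates 2, 10 or 11 or celecoxib replicates 3 or 7, and 5 without vehicle replicates 1 or 4. There were 282 without combination replicate 15, 99 without anti-PD-1 replicate 1, 97 without combination replicate 3, 92, 56 and 47 without celecoxib replicates 5, 1 and 6, 39, 32 and 22 without combination replicates 7, 12 and 13, 27 without vehicle replicate 6, 25 without anti-PD-1 replicate 17, and 14 without anti-PD-1 replicate 10. Arntl was called in all 49, Ptprj in 41, Spon2 in 33, Dbp in 31, mt-Nd5 in 25, Tef in 24, Rap2b in 19, Krt19 in 19 and Abcg3 in 18, and none of the 9 changed sign.

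Signs changed for the following, none past the limit after the change. With the clock measure, which contains Dbp, Tef and Per2, they had −0.00068, −0.16 and −0.043, and Ptgs1 −0.065. Ptgs2 was −0.047 with limma-voom, −0.062 with equal weight, −0.57 with the response label, −0.63 in NR tumours, −0.37 with the muscle list and −0.43 without libraries holding other tissue, and from −0.15 to 0.21 without 1 library. Ptgs1 ran from −0.0097 to 0.067 without 1 library. Cxcl1 was −0.22 with the response label, −0.57 in NR tumours and −0.062 without other tissue. In NR tumours Cd8a was −0.071 and Gzmb −0.17. The cause of these changes was not tested. The permutation of total counts over all tumours, added after the data were seen, gave −0.23 (p = 0.0276). No paired analysis was possible because replicate numbers follow only the order of the labels. With a few reads per library, Krt19, Krt7, Prf1 and Il6 are limited by depth.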

Other observations

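Of the genes next outside the limit, 4 are described here, chosen after their values were seen and with no test of what they share. Zc3h12c encodes an RNA-binding protein of macrophages, Alpk1 a kinase that senses a bacterial sugar, and Naip2 a sensor of bacterial secretion systems.

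Naip2 had 24.8, 37.9 and 47.8 CPM in combination tumours (lowest, median and highest), against 15.1, 25.6 and 35.0 CPM in anti-PD-1 tumours. It had 19.5, 32.4 and 43.6 CPM with celecoxib alone, against 18.5, 23.9 and 40.8 CPM with vehicle. Medians were higher with celecoxib in both strata and ranges overlapped, and the main effect was 0.42 (SE 0.099, edgeR adjusted p = 0.0539).

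Alpk1 had 21.3, 69.9 and 109 CPM in combination tumours, against 14.7, 39 and 63 CPM in anti-PD-1 tumours, and a main effect of 0.60 (SE 0.14, edgeR adjusted p = 0.0534). Zc3h12c, at medians of 4.96 CPM in celecoxib tumours and 2.99 CPM in the others, had 0.89 (SE 0.20, adjusted p = 0.0530). Tle4, a transcriptional corepressor, differed about equally with antibody (0.60, SE 0.16) and without it (0.53, SE 0.24), and its main effect was 0.58 (SE 0.13, adjusted p = 0.0534). None of the 4 passed the limit for the main effect. Among antibody-treated tumours, edgeR called Alpk1 (0.77, SE 0.16, adjusted p = 0.0182) and Zc3h12c (1.04, SE 0.24, adjusted p = 0.0364). It also called Naip2 there (0.48, SE 0.12, adjusted p = 0.0449), but not Tle4 (adjusted p = 0.0690).

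Among tumours without antibody, the 7 genes that DESeq2 called for celecoxib over vehicle were Neb (4.83), Ttn (5.99), Mylpf (5.16), Pygm (4.67), Tchh (5.78), Hspb1 (2.65) and H19 (4.39), as log2 differences. Neb, Ttn, Mylpf and Pygm are genes of skeletal muscle and Tchh is a gene of the hair follicle. The muscle list stood above its limit in 2 of the 7 celecoxib tumours and in 0 of the 9 vehicle tumours. Their part in these calls was not tested.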
